A study of Mus musculus with 10 samples.

Results

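The kallikrein genes examined here are 10 of the 37 genes of the kallikrein (*Klk*) family that the count tables list on mouse chromosome 7, out of 55487 genes in all. They were *Klk14*, *Klk13*, *Klk11*, *Klk10*, *Klk8*, *Klk7*, *Klk6*, *Klk4*, *Klk2-ps* and *Klk1*, a list chosen by values already known from these counts, among them the log2 fold change of *Klk4* between genotypes in epithelial cells. Levels in that contrast are therefore described and not tested. The data were RNA sequencing counts from 10 libraries of mammary gland cells of 10-wk-old BALB/c female mice staged to diestrus, the phase of the estrous cycle in which progesterone is high and alveolar buds form. All mice carried floxed *Cebpb* alleles. The WT mice were *Cebpb* fl/fl without Cre, and the *Cebpb*ΔM mice were *Cebpb* fl/fl with *Csf1r*-iCre, a Cre driven by the promoter of the CSF-1 receptor gene that is active in macrophages and other myeloid cells; the labels call this genotype a C/EBPb knockdown. Mammary epithelial cells (MECs), the cells left after other lineages were removed, gave 2 WT libraries (replicates 1 and 3) and 2 *Cebpb*ΔM libraries (1 and 3). Macrophages, enriched by positive selection for F4/80, gave 2 WT libraries (4 and 5) and 4 *Cebpb*ΔM libraries (4 to 7). The sources do not say whether each library was 1 animal or a pool, so *P* values measure the spread between these libraries.

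Kallikreins are secreted serine proteases that are made as inactive proforms and activated outside the cell by cleavage, often by one another. In skin they act in cascades that shed cornified cells, and their known targets include kininogens, protease-activated receptors, desmosomal cadherins and matrix proteins. Several are regulated by steroid hormones and are made in glandular epithelia, including the breast. KLK4 is best known for degrading enamel proteins in the developing tooth.

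The 10 genes lay on the plus strand of chromosome 7 (GRCm38) over 539 kb. In order they were *Klk14* (43690418 to 43695536), *Klk13* (43712567 to 43727534), *Klk11* (43774604 to 43779263), *Klk10* (43781035 to 43785410), *Klk8* (43797577 to 43803826), *Klk7* (43811294 to 43816359), *Klk6* (43824499 to 43832030), *Klk4* (43881160 to 43885804), *Klk2-ps* (43916254 to 43921873) and *Klk1* (44225360 to 44229618). *Klk10* began 1.77 kb after the end of *Klk11*, the narrowest gap between consecutive genes of the list, and *Klk2-ps*, annotated as a transcribed pseudogene, began 30.4 kb after *Klk4*. *Klk1* stood 303 kb beyond *Klk2-ps*, across the mouse *Klk1b* genes. The gene *2310002F09Rik*, on the minus strand, overlapped *Klk14*, *Klk13*, *Klk11*, *Klk10* and *Klk8* and had 6 to 32 counts per library. Counting was set for reverse-stranded reads, but the sources do not say whether the library kit keeps strand. If it does not, reads of *2310002F09Rik* cannot be told apart from those of these 5 genes wherever their exons overlap. Overlap was taken from gene starts and ends, and overlap of exons was not tested.

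Promoters are shown for *Klk4*, which was near 0 in some libraries and not in others, and for *Klk1b8*, a gene outside the list with a similar pattern. The promoter of *Klk10*, the gene of the list with the highest level in MECs, is also shown. Whether these promoters account for the levels described below was not tested. Each sequence is RefSeq (GRCm38.p6), plus strand, and runs from 250 bases before to 50 bases after the annotated start, with the letters TGTTCT (or AGAACA on the other strand), the hexamer shared by the progesterone, androgen and glucocorticoid receptors, and CCAAT (or ATTGG) in capitals.
*Klk4* (chr7:43880910-43881209): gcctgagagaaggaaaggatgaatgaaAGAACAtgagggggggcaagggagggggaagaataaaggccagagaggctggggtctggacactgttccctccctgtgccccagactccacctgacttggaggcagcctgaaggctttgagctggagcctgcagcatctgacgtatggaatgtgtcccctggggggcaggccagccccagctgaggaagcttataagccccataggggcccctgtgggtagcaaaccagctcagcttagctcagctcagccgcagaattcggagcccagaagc
*Klk1b8* (chr7:43950416-43950715): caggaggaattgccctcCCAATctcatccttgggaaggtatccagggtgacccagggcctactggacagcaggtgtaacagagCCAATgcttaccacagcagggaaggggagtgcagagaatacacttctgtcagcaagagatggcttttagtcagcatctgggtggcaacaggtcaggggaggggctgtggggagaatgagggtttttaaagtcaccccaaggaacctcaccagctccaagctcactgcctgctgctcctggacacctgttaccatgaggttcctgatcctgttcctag
*Klk10* (chr7:43780804-43781103): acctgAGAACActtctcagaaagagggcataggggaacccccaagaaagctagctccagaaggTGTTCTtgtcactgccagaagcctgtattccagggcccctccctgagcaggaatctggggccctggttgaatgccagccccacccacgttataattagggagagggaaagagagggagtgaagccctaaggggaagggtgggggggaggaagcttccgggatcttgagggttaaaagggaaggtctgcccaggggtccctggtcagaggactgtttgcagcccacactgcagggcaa
The *Klk4* window held 1 hexamer, at position -223 from the start, and the *Klk10* window held 2. The *Klk1b8* window held no hexamer and 2 CCAAT matches, letters that 37.4% of all promoters held. The 9 genes of the list with a promoter in the table (all but *Klk2-ps*) had 11 windows, since *Klk11* and *Klk6* had 2 each, and 5 of the 11 windows held the hexamer, which 19.0% of the 32851 promoters of the same length also held. None of the 11 held the letters TTGCNNCAA, found in 2.08% of all promoters, or TATAAA, found in 13.6%. TTGCNNCAA was searched as a C/EBP pattern, but it does not match the usual C/EBP site. Whether these windows hold C/EBP sites was therefore not tested. Both strands were searched, and a match or its absence describes these letters in this window only.

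The libraries held 25310926 to 27008166 counts in MECs and 16935000 to 20174722 in macrophages, and 3 counts, the limit that a count of 0 allows, corresponded to 0.111 to 0.119 CPM (counts scaled to the library total) in MECs and 0.149 to 0.177 CPM in macrophages. Levels below are CPM scaled by the trimmed mean of M values (TMM) over the 10 libraries. *Cebpb* itself had 69 and 42 counts in the *Cebpb*ΔM MECs against 25 and 28 in WT, and 16, 13, 5 and 4 counts in the *Cebpb*ΔM macrophages against 13 and 15 in WT. The genotypes overlapped in macrophages, where *Cebpb* did not pass the filter, so these few counts could not separate the labels. The paper reports that C/EBPβ was absent from CSF1R+ mammary cells of *Cebpb*ΔM mice by immunostaining, and from their bone marrow-derived macrophages by immunoblot. By qRT-PCR it reports no detectable *Cebpb* mRNA in such bone marrow-derived macrophages treated with LPS. Genotypes are given here as labelled. The 8 epithelial markers (among them *Epcam* and *Krt8*) summed to 30010 to 37450 CPM in MECs and still to 5273 to 9858 CPM in the macrophage libraries, all 8 above the floor in every library. The 10 macrophage markers (among them *Adgre1* and *Csf1r*) summed to 8294 to 16030 CPM in macrophages and 33.0 to 43.9 CPM in MECs. The macrophage libraries therefore held epithelial RNA, and its part in the kallikrein levels of these libraries was not tested. In bulk RNA, fewer cells of a type and less RNA per cell cannot be told apart.

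The kallikreins of MECs were led by *Klk10*, a secreted family member with little known catalytic activity. Its counts were 366 and 271 in the WT libraries and 273 and 145 in the *Cebpb*ΔM libraries. Per kilobase of exon, *Klk10* stood at 9.40 ± 1.96 CPM per kb in WT MECs (SD, n = 2), above *Klk11* (1.94 ± 0.63), *Klk8* (1.78 ± 0.25), *Klk6* (1.21 ± 0.72) and *Klk7* (1.17 ± 0.92), which did not differ from one another beyond these SDs. *Klk14* stood at 0.16 ± 0.05 CPM per kb, *Klk4* at 0.081 ± 0.115 and *Klk13* at 0.0088 ± 0.0125. *Klk2-ps* and *Klk1* had no count in WT MECs. In *Cebpb*ΔM MECs the level per kb of *Klk4* was 6.71 ± 4.13, next to *Klk10* at 6.09 ± 2.82 and within its spread. The next genes there were *Klk8* (1.26 ± 0.46), *Klk7* (0.91 ± 0.25), *Klk2-ps* (0.73 ± 0.51), *Klk11* (0.72 ± 0.39) and *Klk6* (0.72 ± 0.22), whose levels per kb overlapped.

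**Figure D1:**
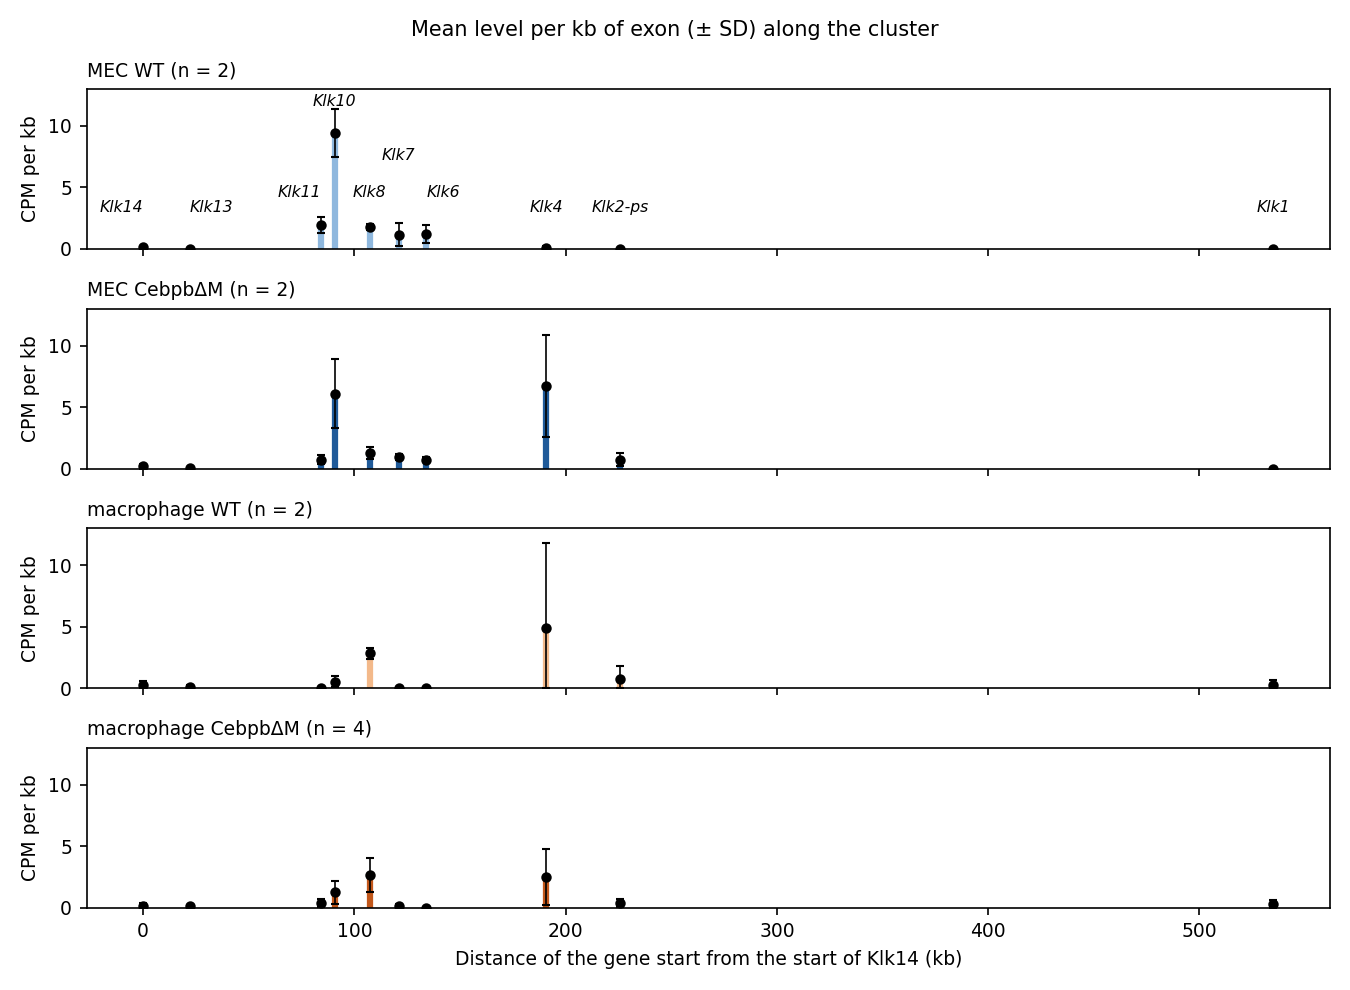
Mean level in CPM per kb of exon (vertical axis) of the 10 genes at the distance of each gene start from the start of *Klk14* in kb (horizontal axis), 1 panel per group, with SD over libraries as error bars that stop at 0. *Klk10* led in WT MECs at 9.40 CPM per kb, and *Klk4* stood at 0.081 there and at 6.71 in *Cebpb*ΔM MECs.

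In macrophages the order was different. *Klk8*, also called neuropsin, a trypsin-like protease of skin and brain, and *Klk4* had the highest means. *Klk4* averaged 4.92 ± 6.90 CPM per kb in WT macrophages (SD, n = 2) and 2.49 ± 2.30 in *Cebpb*ΔM macrophages (n = 4), an SD near or above the mean in both. *Klk8* averaged 2.83 ± 0.42 and 2.68 ± 1.38 CPM per kb, and *Klk10* 0.54 ± 0.46 and 1.26 ± 0.95. The other genes of the list stayed at or below 0.74 CPM per kb in both genotypes, and *Klk6*, known as neurosin and abundant in the central nervous system, had no count in any of the 6 macrophage libraries.

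**Figure D2:**
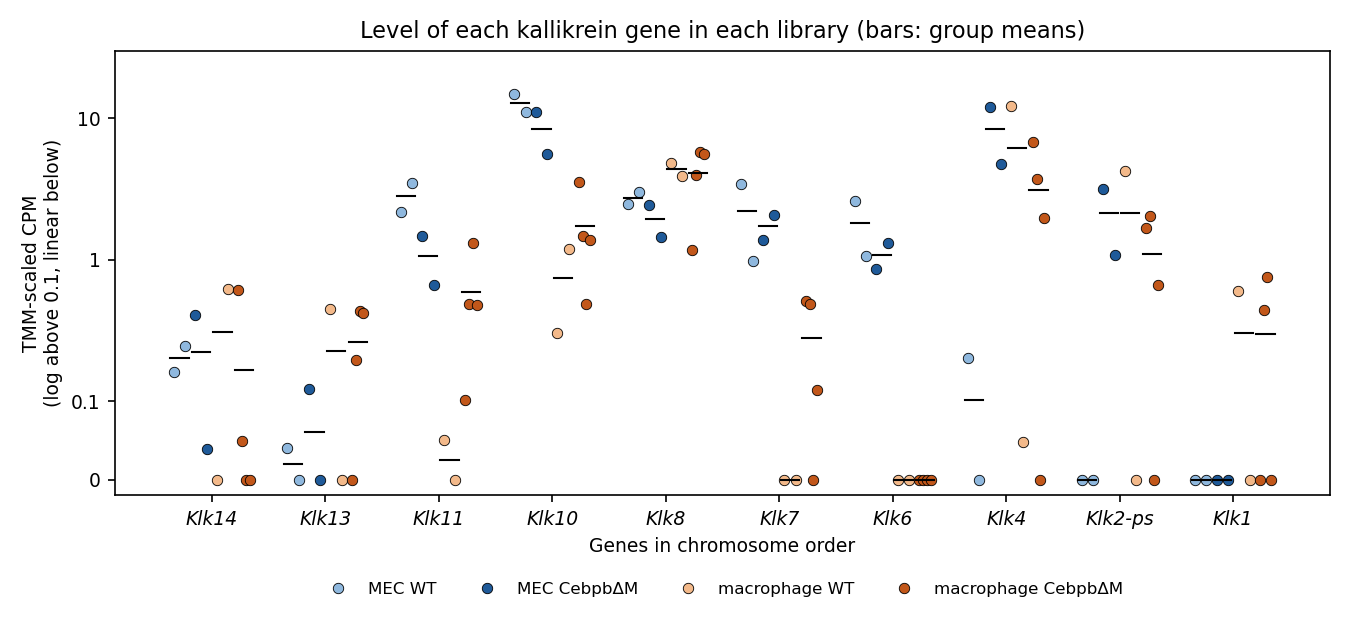
TMM-scaled CPM of each gene (vertical axis, log above 0.1 and linear below) in chromosome order (horizontal axis), with 1 point per library, coloured by group, and bars at group means. *Klk4* and *Klk2-ps* split the libraries within the macrophage groups, whereas *Klk8* stayed between 1.17 and 5.75 CPM in all 10.

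*Klk4* and *Klk2-ps* were present in both *Cebpb*ΔM MEC libraries and near or at 0 in both WT libraries. *Klk4* had 296 and 122 counts in *Cebpb*ΔM MECs and 5 and 0 in WT. In CPM these were 12.03 and 4.74 against 0.20 and 0. *Klk2-ps* had 78 and 28 counts in *Cebpb*ΔM MECs and 0 in both WT libraries. The genotypes did not overlap for either gene. The pooled counts of *Klk4*, 418 against 5, gave a ratio of 81.9 (95% exact binomial interval 34.8 to 254, counting error only), and the fitted log2 fold change was 6.31 (SE 0.79). *Klk2-ps* was at least 17.5-fold higher against a floor of 3 counts per library. The log2 fold change of *Klk4* was 5.53 without *Cebpb*ΔM replicate 1 and 5.37 without WT replicate 3, and without WT replicate 1 the WT group held no *Klk4* count. Because this contrast chose the genes, these are descriptions.

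The 5 genes from *Klk11* to *Klk6* had negative log2 fold changes in MECs, of which 3 overlapped between genotypes. *Klk11*, a trypsin-like protease also called hippostasin, had 36 and 17 counts in *Cebpb*ΔM MECs and 54 and 86 in WT, which gave -1.41 on the log2 scale (SE 0.50), and -2.05 without *Cebpb*ΔM replicate 1. *Klk8* had 60 and 37 counts against 61 and 74, which gave -0.48 on the log2 scale (SE 0.43). These genes did not overlap between genotypes in CPM. *Klk10* (-0.61, SE 0.34), *Klk6* (-0.71, SE 0.54) and *Klk7* (-0.33, SE 0.57) overlapped. *Klk7*, the chymotrypsin-like enzyme of the outer skin, had 34 and 53 counts in *Cebpb*ΔM MECs and 85 and 24 in WT, and without WT replicate 1 its log2 fold change was 0.83. *Klk6* had 21 and 34 counts against 64 and 26, and without WT replicate 1 its log2 fold change was 0.056.

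Of the 10 genes, 7 passed the filter in MECs, 2 with a positive and 5 with a negative log2 fold change, where 48.6% of all 15698 genes were positive. The genotypes did not overlap for 2 in the higher and 2 in the lower direction, and over all genes 13.6% were higher and 14.5% lower without overlap. Since the choice of genes used this contrast, nothing is read from these counts. The median log2 fold change of the 7 was -0.48, with *Klk2-ps* at its bound, against -0.0078 over all genes. *Klk14*, a trypsin-like enzyme of skin that can activate other kallikreins, did not pass, with 10 and 1 counts against 4 and 6. *Klk13* had 3 and 0 counts against 1 and 0, and *Klk1*, tissue kallikrein, which releases kinins from kininogen, had none.

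In macrophages the genotype labels did not sort *Klk4* and *Klk2-ps*. *Klk4* had 244 counts in WT replicate 4 and 1 in WT replicate 5, and 133, 76, 0 and 33 counts in *Cebpb*ΔM replicates 4 to 7. *Klk2-ps* had 85 and 0 counts in the WT libraries and 33, 42, 0 and 11 in the *Cebpb*ΔM libraries. Both genes were high in 1 of 2 WT libraries, absent or nearly so in the other WT library and in *Cebpb*ΔM replicate 6, and intermediate in the other 3. The log2 fold change of *Klk4* was -0.995 (SE 1.57, adjusted *P* 0.911 by the quasi-likelihood (QL) test of edgeR) and that of *Klk2-ps* -0.97 (SE 1.63, adjusted *P* 0.918 by the QL test). Without WT replicate 4 they were 5.83 and 7.41, with 1 WT library left, whose spread is taken to be that of the other group. That library held 1 *Klk4* count and 0 *Klk2-ps* counts, so 7.41 is a fit against 0 and not a measured size. Over the 13 alternatives the adjusted *P* lay between 0.567 and 0.978 for *Klk4* and between 0.557 and 0.970 for *Klk2-ps*. Whether the genotype effect differed between MECs and macrophages was not tested. An uneven pattern of this kind, at most 3 counts in 2 or more libraries and at least 30 in another, a criterion set after these values were seen, held for 403 of the 17772 genes tested in macrophages (2.27%) and for 1 of 15698 in MECs, which was *Klk2-ps*. The filter of over 1 CPM in at least 2 libraries leaves fewer ways to meet it with 4 MEC libraries than with 6 macrophage libraries. The shares of the cell types are therefore not compared.

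The other genes of the list also passed no test between macrophage genotypes. *Klk8* had 96 and 82 counts in WT macrophages and 23, 82, 106 and 93 in *Cebpb*ΔM macrophages, which gave -0.11 on the log2 scale (SE 0.60, adjusted *P* 0.982 by the QL test). Its lowest value was *Cebpb*ΔM replicate 4, without which the log2 fold change was 0.20. *Klk10* had 6 and 25 counts in WT and 70, 30, 9 and 23 in *Cebpb*ΔM macrophages, which gave 1.177 on the log2 scale (SE 0.97, adjusted *P* 0.795 by the QL test). The remaining 6 genes did not pass the filter. *Klk11* had 1 and 0 counts in WT and 2, 10, 24 and 8 in *Cebpb*ΔM macrophages, all *Cebpb*ΔM libraries above WT but 1 of them within the floor of 3 counts. *Klk7* had none in WT and 10, 10, 0 and 2 in *Cebpb*ΔM macrophages. *Klk14*, *Klk13* and *Klk1* ranged from 0 to 14 counts in both genotypes.

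Thus 0 of the 4 genes tested differed between macrophage genotypes by the QL test, and 0 at an unadjusted *P* under 0.05. None of the 4 separated the genotypes without overlap, while 10.4% of all genes were higher and 8.1% lower without overlap. Over all genes the QL test called 0 of 17772 (0%) and 1534 (8.63%) had an unadjusted *P* under 0.05, whereas the likelihood ratio test called 138 and DESeq2 201 genes, with none of the 4 kallikreins called by either.

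**Figure D3:**
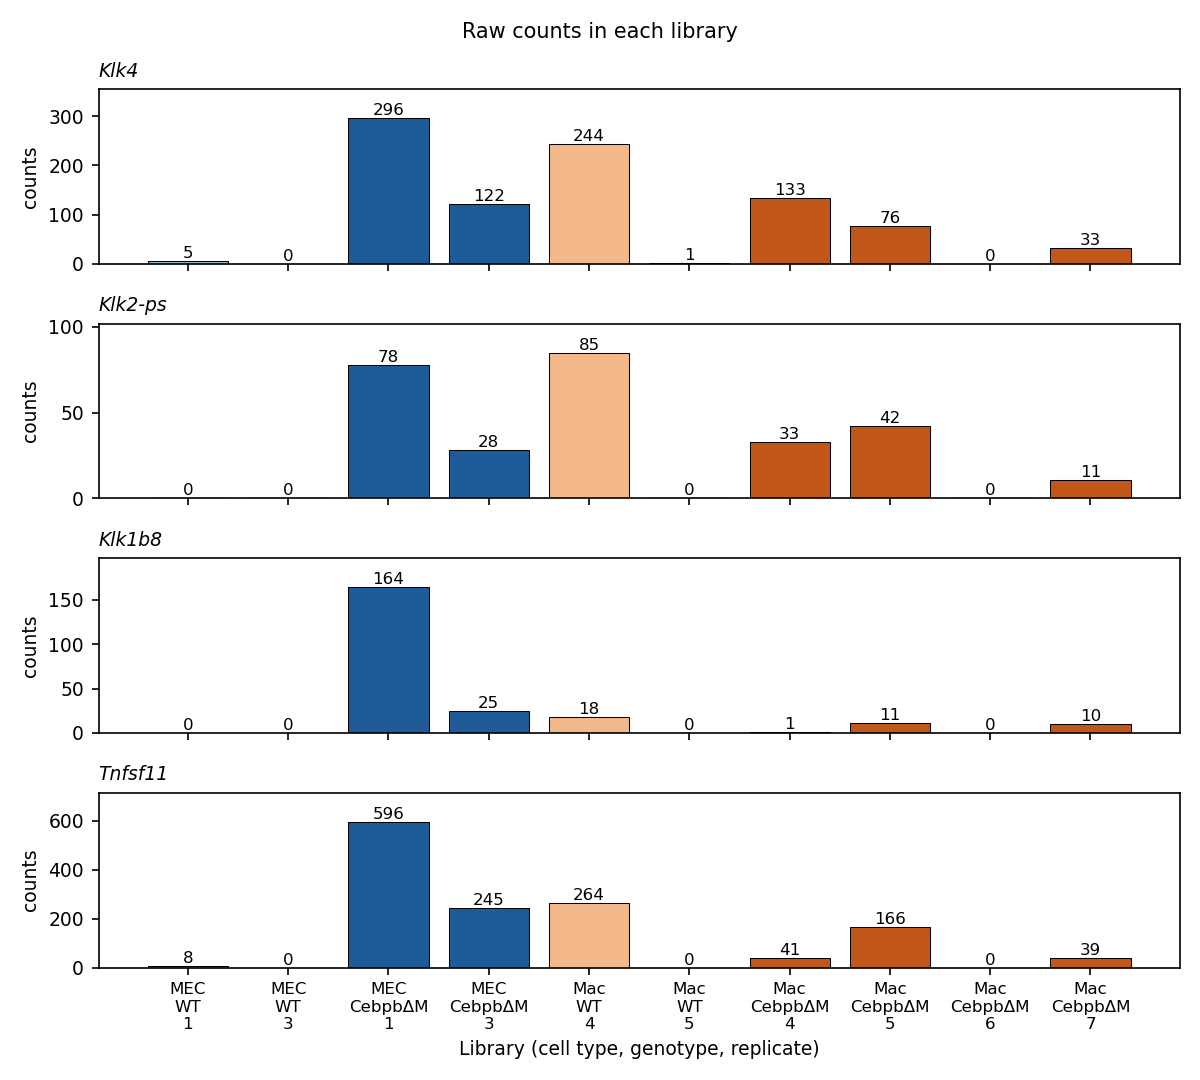
Raw counts (vertical axes, from 0) of *Klk4*, *Klk2-ps*, *Klk1b8* and *Tnfsf11* in each of the 10 libraries (horizontal axis), coloured by group. The 4 genes were at 0 to 8 counts in the WT MEC libraries, WT macrophage replicate 5 and *Cebpb*ΔM macrophage replicate 6, and *Klk4* and *Tnfsf11* were at 33 or more counts in the other 6.

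*Klk4* and *Klk2-ps* varied together across libraries of both cell types. In the 6 libraries with *Klk2-ps* counts, *Klk4* had 3.79 and 4.36 counts for each *Klk2-ps* count in *Cebpb*ΔM MECs, 2.87 in WT macrophage replicate 4, and 4.03, 1.81 and 3.0 in *Cebpb*ΔM macrophage replicates 4, 5 and 7. Over the 10 libraries the log2 CPM of *Klk2-ps* had the highest Pearson *r* with *Klk4* among 18323 genes, at 0.979 (n = 10 libraries, description only). The next were *Tnfsf11* (*r* = 0.966), which encodes the cytokine RANKL, and *Sprr2a1* (*r* = 0.914), which encodes a small proline-rich protein of the cornified envelope. *Tnfsf11* had 596 and 245 counts in *Cebpb*ΔM MECs, 8 and 0 in WT MECs, 264 and 0 in WT macrophages and 41, 166, 0 and 39 in *Cebpb*ΔM macrophages. The 10 points share 2 separately prepared cell types, and the values of genes at 0 depend on the prior count of 2.

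*Klk4* and *Klk2-ps* took up 46.1% (95% exact binomial interval 42.6 to 49.6) and 34.3% (29.9 to 39.0) of the counts of the 10 genes in *Cebpb*ΔM MECs, and 0.78% (0.25 to 1.81) and 0% (up to 0.75) in WT MECs. In macrophages the share was 72.6% (68.3 to 76.7) in WT replicate 4 and 0.83% (0.021 to 4.52) in WT replicate 5. It was 58.7%, 44.7%, 0% and 24.9% in *Cebpb*ΔM replicates 4 to 7. Identical stretches between the transcripts of these genes were short, and their similarity as a whole was not measured. The longest identical stretch between *Klk4* and *Klk2-ps* transcripts (GENCODE, GRCm38) was 13 bases, and that between *Klk2-ps* and *Klk1b8* 26 bases. For the other genes of the list, the longest stretch shared with any kallikrein transcript was 16 to 31 bases, except *Klk1*, which shared 145 bases with *Klk1b5* and whose counts are therefore uncertain.

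Of the 27 other kallikrein genes, 16 had no count in any library, 8 had at most 9 counts in their highest library and 3 had 10 or more. *Klk1b8*, which lies 28.8 kb beyond *Klk2-ps* with *Klk15* between them at 0 in every library, had 164 and 25 counts in *Cebpb*ΔM MECs and 0 in both WT libraries. It had 18 and 0 counts in WT macrophages and 1, 11, 0 and 10 in *Cebpb*ΔM macrophages. *Klk1b8* was thus at 0 in the same 4 libraries as *Klk2-ps*, but its count for each *Klk4* count ranged from 0.0075 to 0.554, and it shared 105 bases with *Klk1b26*, so its counts are uncertain. *Klk9*, which lies between *Klk10* and *Klk8*, had 14 and 1 counts in *Cebpb*ΔM MECs, 12 and 6 in WT MECs, 38 and 0 in WT macrophages and 9, 12, 0 and 2 in *Cebpb*ΔM macrophages. *Klk5*, a known activator of *Klk7* and *Klk14* in skin, had 3 and 2 counts in *Cebpb*ΔM MECs, 12 and 1 in WT MECs and none in macrophages.

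Between the WT cell types *Klk10* was lower in macrophages. In WT libraries it had 366 and 271 counts in MECs and 6 and 25 in macrophages, which gave -4.10 on the log2 scale (SE 0.86, adjusted *P* 0.00565 by the QL test). *Klk11*, *Klk7* and *Klk6* passed the filter only through MEC libraries, with over 1 CPM in 1, 0 and 0 of the 6 macrophage libraries, so a difference was built into their entry and their *P* values are given as fitted and not as support. *Klk11* had 54 and 86 counts against 1 and 0, which gave -6.55 on the log2 scale (SE 1.43, adjusted *P* 0.00675 by the QL test). *Klk7* and *Klk6* had no count in WT macrophages and were at least 15.1-fold and 12.4-fold below MECs against a floor of 3 counts per library (QL test adjusted *P* = 0.0126 and 0.0117). *Klk10* and these 3 genes did not overlap between the cell types, which held for 31.3% of all genes in this direction. Without MEC WT replicate 1 the adjusted *P* of *Klk7* and *Klk6* by the QL test were 0.0625 and 0.0636, and without macrophage WT replicate 5 that of *Klk7* was 0.0570. The alternatives ranged from 4.87e-05 to 0.0625 for *Klk7* and from 4.74e-06 to 0.0636 for *Klk6*. Cell type and experiment cannot be told apart, since MECs and macrophages were isolated and counted separately.

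In WT libraries *Klk8* had 61 and 74 counts in MECs and 96 and 82 in the shallower macrophage libraries, or 2.74 ± 0.38 against 4.36 ± 0.64 CPM (SD, n = 2 each), without overlap, as were 33.8% of all genes in this direction, but the adjusted *P* was 0.481 by the QL test and the log2 fold change 0.67 (SE 0.64). *Klk4* and *Klk2-ps* rested on macrophage replicate 4. The log2 fold change of *Klk4* was 5.84 (SE 2.25, adjusted *P* 0.0804 by the QL test), and -0.97 (QL test adjusted *P* = 0.853) without that library, and *Klk2-ps* was then at 0 in the remaining WT libraries of both cell types. Over 15 alternatives the adjusted *P* of *Klk4* lay between 0.0312 and 0.853. With all WT libraries *Klk2-ps* was at least 17.5-fold higher in macrophages (QL test adjusted *P* = 0.0667).

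In *Cebpb*ΔM libraries *Klk10* was also lower in macrophages. It averaged 8.37 ± 3.87 CPM in MECs (SD, n = 2) and 1.72 ± 1.30 in macrophages (n = 4), a log2 fold change of -2.27 (SE 0.63, adjusted *P* 0.0172 by the QL test), with all 4 macrophage libraries below both MEC libraries, as they were for 24.6% of all genes. Without MEC *Cebpb*ΔM replicate 1 its adjusted *P* by the QL test was 0.184, the highest over 15 alternatives, the lowest being 0.00216. *Klk6*, with no count in these macrophages, was at least 6.78-fold below MECs (QL test adjusted *P* = 0.00399, again not as support). *Klk7* had a log2 fold change of -2.58 (SE 1.005, adjusted *P* 0.0745 by the QL test) and *Klk11* one of -0.84 (SE 0.86, adjusted *P* 0.488 by the QL test). *Klk8* had a log2 fold change of 1.09 (SE 0.58, adjusted *P* 0.178 by the QL test), which passed the threshold without macrophage replicate 4 (log2 fold change 1.40, QL test adjusted *P* = 0.0238, with 0.0238 to 0.517 over 15 alternatives). *Klk4* (-1.42, SE 1.37) and *Klk2-ps* (-0.95, SE 1.46) overlapped between the cell types (QL test adjusted *P* = 0.461 and 0.661).

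**Figure D4:**
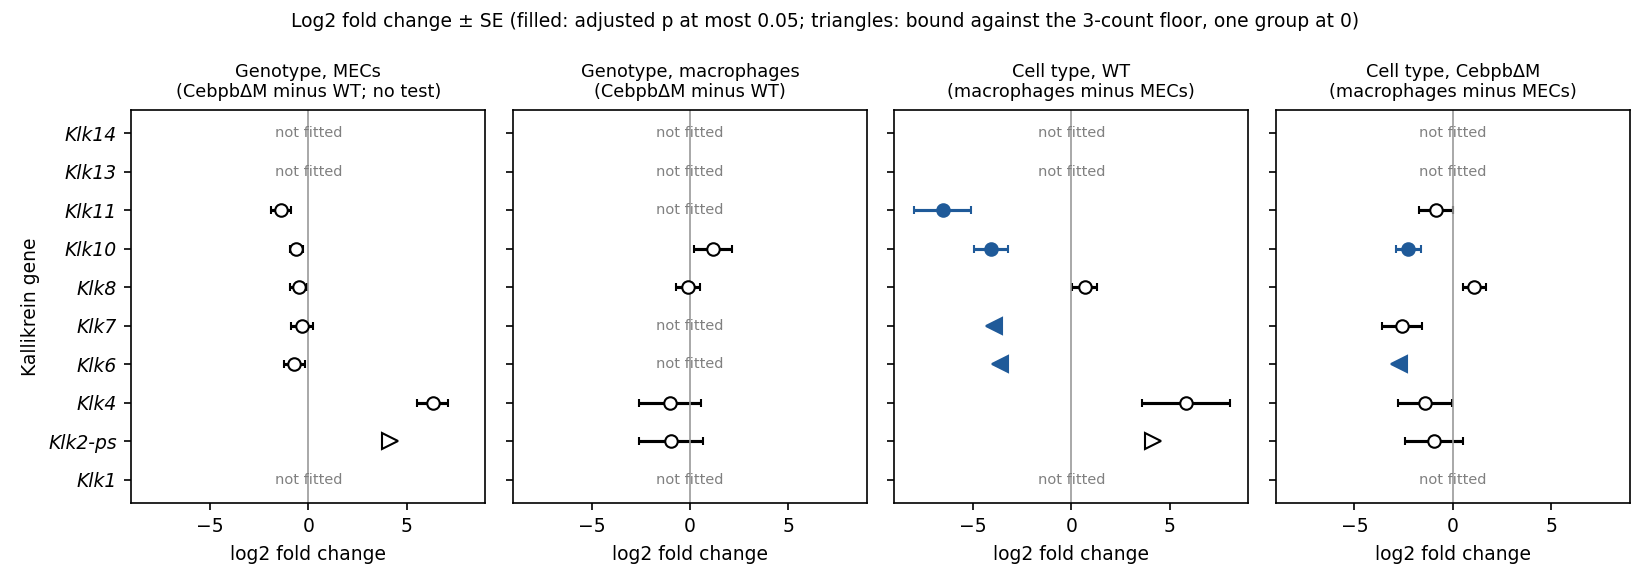
Log2 fold change ± SE (horizontal axes) of each gene (vertical axis) in the 4 comparisons. Filled symbols have an adjusted *P* of at most 0.05 by the QL test, triangles are bounds where one group had no count, and the MEC genotype panel carries no test. *Klk11*, *Klk7* and *Klk6* entered the cell type fits only through MEC libraries. *Klk10* was lower in macrophages in both genotypes, at -4.10 and -2.27.

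In each cell type comparison 7 of the 10 genes were fitted, and 3 of them entered through MEC libraries alone, so no count of calls or median over the list is read. The comparison in each genotype used its own libraries but 1 estimate of the spread, and the difference between the genotypes was not tested.

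**Figure D5:**
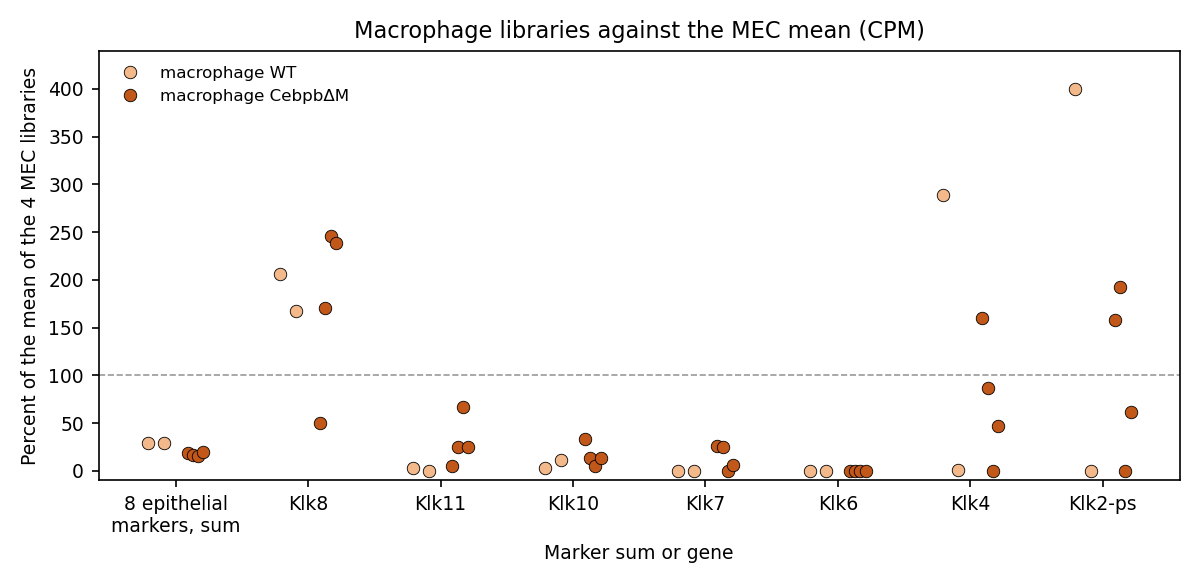
Level of the summed epithelial markers and of 7 kallikrein genes (horizontal axis) in each macrophage library as a percent of the mean CPM of the 4 MEC libraries (vertical axis, dashed line at 100), coloured by genotype. Epithelial markers lay between 15.7 and 29.4 percent, *Klk10* between 2.83 and 33.5 and *Klk8* between 50.1 and 246.

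Epithelial markers in the macrophage libraries summed to 29.3% and 29.4% of the MEC mean in WT and to 18.6%, 16.1%, 15.7% and 19.9% in *Cebpb*ΔM replicates 4 to 7. *Klk10* stood at 2.83% and 11.2% of its MEC mean in WT macrophages and at 33.5%, 13.7%, 4.59% and 12.99% in *Cebpb*ΔM macrophages, above the epithelial percentage in *Cebpb*ΔM replicate 4 only. *Klk6* stood at 0% in all 6. *Klk8* stood at 206% and 167% in WT macrophages and at 50.1%, 171%, 246% and 239% in *Cebpb*ΔM macrophages, above the epithelial percentage in each of these 6 libraries. *Klk4* reached 288% of its MEC mean in WT replicate 4 and 160% in *Cebpb*ΔM replicate 4, in libraries whose epithelial percentages were 29.3% and 18.6%. It was at 1.12% in WT replicate 5 with an epithelial percentage of 29.4%. That MEC mean combined 0.20 and 0 CPM in WT MECs with 12.03 and 4.74 CPM in *Cebpb*ΔM MECs. *Klk4* in *Cebpb*ΔM macrophage replicate 4, at 6.775 CPM, was below the mean of *Cebpb*ΔM MECs, 8.39 CPM. In WT macrophage replicate 4 it was at 12.24 CPM, above both WT MEC libraries and both *Cebpb*ΔM MEC libraries. In WT macrophage replicates 4 and 5, where *Klk4* had 244 and 1 counts, the epithelial markers summed to 9804 and 9858 CPM. In these libraries 6 hormone-sensing luminal markers (such as *Esr1*, *Pgr* and *Foxa1*) summed to 1811 and 2079 CPM. The sums of 7 basal markers were 1244 and 804 CPM, and those of 5 luminal progenitor markers 763.5 and 927 CPM. The part of epithelial RNA in these *Klk4* counts was not tested.

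Of the genes most like *Klk10* across the 10 libraries, *Kctd15* (*r* = 0.966), *Efna5* (*r* = 0.963) and *Ebf4* (*r* = 0.961) ranked first among 18323 genes, a description over n = 10 libraries that mostly holds the difference between the cell types. *Efna5*, an ephrin ligand, had 1508 to 2333 counts in MECs and 349 to 906 in macrophages. Within the list, the *r* of *Klk10* was 0.920 with *Klk7*, 0.867 with *Klk6* and 0.628 with *Klk11*, and it was -0.655 with *Klk8* and -0.047 with *Klk4*.

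Genes around the cluster were compared in the same fits. Within 250 kb of the outermost genes of the list the tables held 67 other genes, of which 14 passed the filter in MECs, 16 in macrophages and 17 over both. None of the 16 was called between macrophage genotypes by the QL test, beside 0 of all 17772 genes. Their log2 fold changes lay between -1.17 and 1.04. In MECs the log2 fold changes of the 14 lay between -0.98 and 1.502, with the highest at *1700028J19Rik*, and 4 were higher and 1 lower without overlap, beside 13.6% and 14.5% of all genes. Between cell types 4 of 17 were called higher and 1 lower in WT macrophages by the QL test, beside 14.8% and 10.7% of all 18323 genes. In *Cebpb*ΔM macrophages 3 were called higher and 3 lower, beside 18.9% and 14.7% of all genes. *Cd33* (9.09 and 9.93) and *Siglece* (7.90 and 6.82), myeloid lectins upstream of *Klk14*, had the largest log2 fold changes in WT and *Cebpb*ΔM libraries. *Cd33* and *Siglece* passed the filter in macrophages and not in MECs, so a difference was built into their entry. Their calls, and the counts of genes called higher that include them, are not given as support. *Zfp658* (3.13 and 2.25) was also called higher in macrophages in both. *Gm28496* (2.15) was called higher and *Zfp719* (-1.33) lower in WT, and *Etfb* (-0.57), *2410002F23Rik* (-0.68) and *Clec11a* (-1.32) were called lower in *Cebpb*ΔM libraries.

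The genes on which kallikreins act, or which activate or inhibit them, were taken as a list of 49, of which 25 passed the filter in MECs, and 30 in macrophages and over both cell types. In MECs 2 were higher and 7 lower in *Cebpb*ΔM without overlap, beside 13.6% and 14.5% of all genes, and the median log2 fold change was -0.13 against -0.0078 over all genes. Of these and the tooth genes below, named after their values were seen, *Igfbp3*, an IGF-binding protein that kallikreins can cleave, had 1776 and 2226 counts in *Cebpb*ΔM MECs and 914 and 823 in WT, and the epidermal kallikrein inhibitor *Spink5* had 52 and 61 against 105 and 99. The enamel substrates of KLK4 had few or no counts, with *Ambn* and *Enam* at 0 in all 10 libraries and *Amelx* at 0 to 12 counts. The enamel protease *Mmp20* was also at 0 throughout. Between macrophage genotypes 0 of the 30 were called by the QL test, beside 0 of all 17772 genes, so nothing is read from this count. Their median log2 fold change was -0.38 against 0.0040 over all genes.

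Between cell types 2 of the 30 were called higher and 10 lower in WT macrophages, and 4 higher and 15 lower in *Cebpb*ΔM macrophages by the QL test. Over all 18323 genes 14.8% were called higher and 10.7% lower in WT macrophages, and 18.9% and 14.7% in *Cebpb*ΔM macrophages. Of the 14 inhibitors, 9 were tested, with 0 called higher and 2 lower in WT and 1 higher and 4 lower in *Cebpb*ΔM libraries. They included *Slpi* (-5.43 in WT and -4.11 in *Cebpb*ΔM libraries), *Serpinb5* (-1.66 and -1.92) and, in *Cebpb*ΔM libraries, *Tfpi2* (-1.07) and *Serpina1a* (4.17), the last a member of a family of near-identical copies and uncertain. *Serpina1a* passed the filter in macrophages and not in MECs, so its call is not given as support. Of the 12 activating and partner proteases, 9 were tested, with 0 called higher and 4 lower in WT and 1 higher and 6 lower in *Cebpb*ΔM libraries. *Prss22* (-4.38 in WT and -3.84 in *Cebpb*ΔM libraries), *St14*, the membrane protease matriptase (-1.79 and -2.19), *Ctsl* (-1.496 and -0.55) and *Hpn* (-1.22 and -1.32) were called lower in both, and the urokinase gene *Plau* was called higher in *Cebpb*ΔM libraries (0.90).

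Of the 23 substrates and receptors, 12 were tested, with 2 called higher and 4 lower in WT and 2 higher and 5 lower in *Cebpb*ΔM libraries by the QL test. The shares over all genes were 14.8% higher and 10.7% lower in WT, and 18.9% and 14.7% in *Cebpb*ΔM libraries. Fibronectin, *Fn1* (3.43 in WT and 3.73 in *Cebpb*ΔM libraries), and *L1cam* (1.98 and 2.19) were higher in macrophages, and *Nrg1* (-2.43 and -2.53), *Igfbp3* (-1.01 and -1.49) and the desmosomal cadherin *Dsg2* (-1.43 and -1.77) were lower. The receptor of trypsin-like kallikreins *F2rl1*, named after its values were seen, had 457 to 843 counts in MECs and 5 to 101 in macrophages.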

How the data were processed

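RNA sequencing of 10 mammary libraries was analysed from the deposited raw read counts per gene. The authors trimmed reads with Trimmomatic 0.33, aligned them with HISAT2 2.1.0 to GRCm38, and counted read pairs with featureCounts 1.6.2 (Ensembl release 100, reverse-stranded, mapping quality at least 10), in 1 table for MECs and 1 for macrophages. The tables were joined on gene identifiers, and 55141 of 55487 genes matched a symbol. Genes of at least 300 nt with over 1 CPM in at least 2 of the libraries compared were fitted with edgeR 4.0.16 (quasi-likelihood test, TMM, Benjamini-Hochberg adjustment over all genes tested, threshold 0.05). The study names the likelihood ratio test, used here as an alternative. Genotypes were compared within each cell type, and cell types over all 10 libraries in 4 groups. Floors (3 counts per library) and exact binomial intervals cover counting error only.

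All 10 genes of the list were named in every comparison. The rule for others took kallikrein genes with at least 10 counts in a library, called genes within 250 kb, the 3 called genes with the smallest P per direction of the lists of inhibitors, proteases, and substrates and receptors, and the 3 genes most correlated with Klk4 and with Klk10. Genes and lists, including the cell type markers, were chosen with earlier results of these data known. The edgeR steps were tested on simulated data. Alternatives were DESeq2 1.42.0, its size factors, other filters, a replicate block, other sets of libraries, and leaving out each library.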

Additional observations from a re-analysis of the deposited data

How the results depend on the processing

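Of 328 refitted log2 fold changes of kallikrein genes, 297 kept their direction and their side of the threshold (or, untested, moved by less than 1 SE), and of 53 refitted counts 44 stayed within 1.5 times. In MECs 4 of 9 genes had a positive log2 fold change with no filter on low counts, against 2 of 7, and 2 to 4 when each library was left out. In MECs the replicate block left that count at 2, with Klk4 at 6.42. Between macrophage genotypes the likelihood ratio test called 138 genes, DESeq2 201, the replicate block 12 and the fits without 1 library 0. With the replicate block the log2 fold changes of Klk4 and Klk2-ps in macrophages were 1.62 and 1.65 (QL test adjusted P = 0.825 and 0.909). Deviations of same-numbered libraries from their group means correlated at 0.101 in MECs and at 0.119 and -0.077 in macrophages. With 2 libraries per MEC group, both MEC numbers must give the same value. These correlations cannot tell whether a shared number marks a pair, and the sources do not say. Without macrophage WT replicate 4, the log2 fold change between genotypes was 0.05 for Klk8, 5.83 for Klk4 and 7.41 for Klk2-ps. That of Klk4 between WT cell types was then -0.97. Without macrophage CebpbΔM replicate 4, Klk8 between genotypes was 0.20, and without MEC CebpbΔM replicate 1, Klk2-ps between CebpbΔM cell types was 0.018. Leaving out each library in turn, macrophage genotype values ranged from -0.30 to 0.20 for Klk8, -1.99 to 5.83 for Klk4 and -1.97 to 7.41 for Klk2-ps. WT cell type values of Klk4 ranged from -0.97 to 10.03 and CebpbΔM cell type values of Klk2-ps from -1.52 to 0.018. The ends at 7.41 and 10.03 came from fits in which 1 group held no count, so they are not measured sizes. The cause of these shifts was not tested. Between WT cell types 4228 to 5697 genes were called over the settings and 2453 to 4834 without 1 library, the lowest without MEC WT replicate 3, where 2732 were called without replicate 1 and 3038 without macrophage WT replicate 5. Between CebpbΔM cell types these were 5764 to 7008 and 3503 to 6555, the lowest without MEC replicate 1. The likelihood ratio test called Klk4 (adjusted P = 0.0347) and Klk2-ps (0.00636) higher in WT macrophages, DESeq2 Klk2-ps (0.0386), and the likelihood ratio test Klk7 lower in CebpbΔM macrophages (0.0203), within ranges over the alternatives of 0.0312 to 0.853, 0.00636 to 0.224 and 0.0203 to 0.253. Members that did not pass the filter were not tested, and 3 of the 4 groups had 2 libraries.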

Other observations

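Markers of other cell types gave these summed levels, whose part in the kallikrein values was not tested. The 7 basal markers summed to 6053 to 7556 CPM in MECs and to 731 to 3052 CPM in macrophages, and the 5 luminal progenitor markers to 1037 to 1898 and 764 to 1277 CPM. The 6 hormone-sensing luminal markers summed to 3132 to 3537 CPM in MECs and to 694 to 2079 CPM in macrophages. The 9 squamous markers, from the keratinised cell types in which Klk5, Klk7 and Klk14 are best known, summed to 552 to 655 CPM in MECs and to 3.60 to 23.2 CPM in macrophages. The 5 fibroblast markers summed to 5073 to 6243 CPM in MECs and to 3089 to 7263 CPM in macrophages. The 4 adipocyte markers summed to 30.5 to 33.3 CPM in MECs and 403 to 1106 CPM in macrophages, the 4 endothelial markers to 46.3 to 70.9 and 586 to 1346 CPM, and the 6 lymphocyte markers to 1.26 to 2.64 and 6.09 to 14.2 CPM.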
